A study of Homo sapiens with 9 samples.

Results

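TRPS1, a GATA-type zinc finger protein that represses transcription, and 9 genes for subunits of the NuRD complex were followed by mRNA sequencing in RD cells. RD is an established human cell line from an embryonal rhabdomyosarcoma, a tumour of cells resembling early skeletal muscle. The 10 genes were chosen by symbol (TRPS1, GATAD2A, GATAD2B, CHD4, HDAC1, HDAC2, MBD3, MTA1, MTA2 and RBBP4), which were matched to the Ensembl identifiers of the count and RPKM tables. All 10 were among the 60676 identifiers of the tables, and all 10 were among the 17014 genes that had enough counts to be tested. The study asked how transcription changes when TRPS1 is depleted.

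The 3 groups, with 3 libraries each, carried a non-targeting hairpin (shNT), a first hairpin against TRPS1 (shTRPS1#1) or a second one (shTRPS1#2). All groups received 1 µM doxycycline, which the titles name with each hairpin, first in growth medium (10% fetal bovine serum, 2 days) and then in differentiation medium (2% horse serum, 10 days). No library without doxycycline or kept in growth medium was analysed here, so each difference below is one between hairpins in serum-reduced cultures. The labels name 1 cell line and do not state whether the replicates are separate cultures, and the p-values rest only on how far these libraries spread, which may be technical. In bulk RNA, fewer cells of one kind and less RNA per cell cannot be told apart.

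Libraries held 21965744 to 23289062 counts. All 10 skeletal muscle markers listed for the line were detected in every group, whereas none of 5 epithelial, 5 blood and 5 hepatocyte markers reached the level for testing, and of 5 endothelial markers only TEK did. The summed muscle markers were at 5772 to 6034 CPM (counts scaled to library size) in shNT, 7847 to 8050 in shTRPS1#1 and 7386 to 7670 in shTRPS1#2. Abundant genes weigh most in these sums, and the markers did not all rise. Of the 10, 9 lay above shNT and 1 below with shTRPS1#1, and 7 above and 3 below with shTRPS1#2. PAX7 was at 0.26 ± 0.04 (log2 fold change ± SE) with shTRPS1#1 and at −0.31 ± 0.04 with shTRPS1#2. The summed CPM of 20 proliferation genes was 2093 to 2248 in shNT, 2172 to 2340 in shTRPS1#1 and 1672 to 1759 in shTRPS1#2, so the second hairpin's libraries stood below the other groups.

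NuRD (nucleosome remodelling and deacetylase) joins an ATP-driven remodelling enzyme to histone deacetylases, and sequence-specific repressors bring it to their target genes. The deacetylases HDAC1 and HDAC2, the histone chaperones RBBP4 and RBBP7 and one of the MTA proteins form the deacetylase core. MBD2 or MBD3, of which only MBD2 binds methylated DNA strongly, and GATAD2A or GATAD2B join that core to the remodelling subunit CHD4, CHD3 or CHD5. TRPS1 has been described as a partner of this complex in breast cancer cells, and germline loss of TRPS1 causes tricho-rhino-phalangeal syndrome in humans.

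TRPS1 mRNA (ENSG00000104447, chromosome 8, 115408496 to 115809673 on the minus strand, GRCh38) was lower with both hairpins. It was at 76.5, 70.0 and 74.1 CPM in the shNT libraries. In the shTRPS1#1 libraries it was at 55.4, 61.7 and 56.3 CPM, and in the shTRPS1#2 libraries at 56.4, 59.0 and 56.8 CPM. Every library with a TRPS1 hairpin lay below every shNT library, and the sets for the hairpins overlapped each other.

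The fold change of TRPS1 was −0.35 ± 0.04 (log2 ± SE, n = 3 against 3) for shTRPS1#1, with an edgeR adjusted p of 2.27e-08. For shTRPS1#2 it was −0.36 ± 0.04, with an edgeR adjusted p of 1.02e-08. Taken as the mean of both hairpins, 78.3% of the shNT level remained (95% interval 74.3% to 82.6%). Between the hairpins the difference was −0.01 (95% interval −0.10 to 0.08; edgeR adjusted p = 0.913), so a difference in TRPS1 depletion was not detectable in these libraries. The fall of TRPS1 was not the largest in these libraries: 296 of the 1077 genes called lower with shTRPS1#1 and 353 of the 1680 called lower with shTRPS1#2 fell by more.

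**Figure D1:**
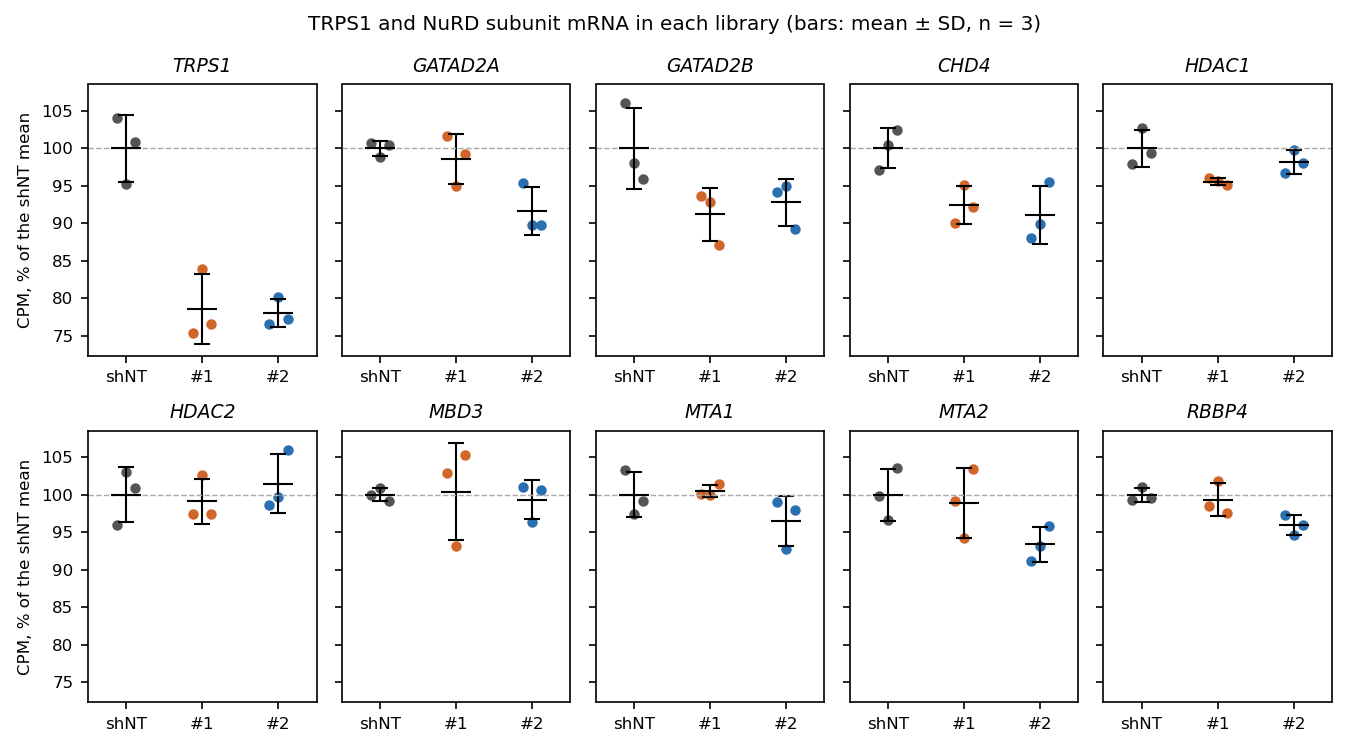
Each library's CPM as a percent of the gene's shNT mean, for TRPS1 and the 9 NuRD subunits (points: libraries; bars: mean ± SD, n = 3; #1 and #2 are the TRPS1 hairpins; the axis does not start at 0). TRPS1 libraries with a hairpin lie well below shNT, at about 78% on average, while the subunits stay near 100% and only GATAD2A, GATAD2B and CHD4 pass the test in any comparison.

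Among the 9 NuRD subunits few fell with either hairpin, to between 91.2% and 91.6% of the shNT level, and none rose with edgeR (also none at an unadjusted p under 0.05, with DESeq2 or with limma). With shTRPS1#1, 1 of 9 fell (GATAD2B), where 6.33% of all genes tested were called lower and 7.1% higher. With shTRPS1#2, 2 of 9 fell (GATAD2A and CHD4), where 9.87% of all genes were called lower and 9.01% higher. For the mean of both hairpins against shNT, 2 of 9 fell (GATAD2B and CHD4), where 7.62% of all genes were called lower and 7.55% higher. Counts of 1 or 2 among 9 genes are too small to be read as different from these shares. At an unadjusted p under 0.05, 2 of 9 were lower with shTRPS1#1, as were 12% of all genes (12.2% were higher), and 4 of 9 with shTRPS1#2, as were 15.4% (13.6% were higher).

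The median log2 fold change of the 9 subunits was −0.02 with shTRPS1#1 and −0.06 with shTRPS1#2, and over all genes tested it was 0.0011 and −0.0056. Of the 9, 7 lay below 0 with shTRPS1#1 and 8 with shTRPS1#2, where 49.7% and 51.6% of all genes did. Both hairpins share the shNT libraries, so these counts are not independent of each other. For shTRPS1#2 the summed proliferation genes were lower as well (all 20 were called lower, with a median of −0.35), and their part in the subunit values was not tested.

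GATAD2A and GATAD2B encode closely related zinc finger scaffold proteins, either of which links the remodelling and deacetylase parts of NuRD. Each gene was called lower with only 1 of the hairpins, and their start regions are shown because they are the related pair in which calls were made. The 250 bases before the RefSeq start (GRCh38.p14) are chr19:19385593-19385842 on the plus strand for GATAD2A and chr1:153922973-153923222 on the minus strand for GATAD2B. Capitals mark CCAAT, the CCAAT-box letters, or ATTGG, the same letters on the other strand.
GATAD2A: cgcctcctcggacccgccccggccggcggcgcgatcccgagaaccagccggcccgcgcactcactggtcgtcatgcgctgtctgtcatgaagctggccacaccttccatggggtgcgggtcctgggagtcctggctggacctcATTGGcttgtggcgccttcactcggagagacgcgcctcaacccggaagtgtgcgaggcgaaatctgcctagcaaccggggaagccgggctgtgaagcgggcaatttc
GATAD2B: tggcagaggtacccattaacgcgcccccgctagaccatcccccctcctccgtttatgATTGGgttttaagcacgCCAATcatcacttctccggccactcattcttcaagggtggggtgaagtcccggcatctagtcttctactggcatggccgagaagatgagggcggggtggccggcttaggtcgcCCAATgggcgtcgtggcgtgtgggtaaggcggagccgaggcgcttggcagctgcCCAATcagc
The capitals show 1 match before GATAD2A and 4 before GATAD2B. CCAAT on either strand was found in 32.0% of 35116 RefSeq promoter windows of the same length, and in 5 of the 9 NuRD subunit windows. A GATA motif, searched on both strands as AGATAA or TGATAA and also as AGATAG or TGATAG, was found in 22.3% of the 35116 windows. It was in 0 of the 9 subunit windows, the pair above included. Several of these windows stand for only some of the annotated starts. In GENCODE v29, 18 of 54 CHD4, 10 of 19 RBBP4, 2 of 7 MTA2, 2 of 17 HDAC2 and 1 of 12 GATAD2B transcripts start farther upstream. A match is a description of letters and not a binding site.

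GATAD2A (ENSG00000167491, chromosome 19, 19385826 to 19508931, plus strand) was at 166, 163 and 165 CPM in shNT and at 167, 156 and 163 CPM in shTRPS1#1. In shTRPS1#2 it was at 157, 148 and 148 CPM. The shTRPS1#2 libraries lay below all shNT libraries, while those of shTRPS1#1 overlapped with both other groups. GATAD2A fell by 0.13 ± 0.04 (log2 ± SE) with shTRPS1#2 (edgeR adjusted p = 0.00785). With shTRPS1#1 the value was −0.02 (95% interval −0.09 to 0.05; edgeR adjusted p = 0.801).

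The difference between the hairpins was itself past the threshold for GATAD2A, at −0.11 ± 0.04 (log2 ± SE; edgeR adjusted p = 0.0283), in a comparison where 10.7% of all genes were called lower with shTRPS1#2 and 8.9% higher. It was the only 1 of the 9 subunits called there, and its libraries overlapped (156 CPM in 1 shTRPS1#1 library and 157 CPM in 1 shTRPS1#2 library). That call is lost with DESeq2 (adjusted p = 0.0531) and without shTRPS1#1 replicate 1 (edgeR adjusted p = 0.211), shTRPS1#1 replicate 3 (0.0955), shTRPS1#2 replicate 2 (0.171) or shTRPS1#2 replicate 3 (0.119). The fall against shNT with shTRPS1#2 is lost only without shTRPS1#2 replicate 2 among the libraries left out in turn (edgeR adjusted p = 0.0762).

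GATAD2B (ENSG00000143614, chromosome 1, 153789030 to 153923360, minus strand) was at 122, 113 and 110 CPM in shNT. It was at 108, 107 and 100 CPM in shTRPS1#1 and at 109, 109 and 103 CPM in shTRPS1#2. Every library with a TRPS1 hairpin lay below every shNT library, with the nearest at 109 and 110 CPM. GATAD2B fell by 0.13 ± 0.04 (log2 ± SE) with shTRPS1#1 (edgeR adjusted p = 0.0162).

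With shTRPS1#2 the value of GATAD2B was −0.11 ± 0.04 (log2 ± SE; edgeR adjusted p = 0.0503), just above the threshold of 0.05. For the mean of both hairpins against shNT, GATAD2B fell by 0.12 ± 0.03 (log2 ± SE; edgeR adjusted p = 0.0100). The hairpins differed by 0.03 (95% interval −0.06 to 0.11), so the calls do not show that they act differently on GATAD2B. The call for shTRPS1#1 is lost with limma on RPKM (adjusted p = 0.0807) and without shNT replicate 1 (edgeR adjusted p = 0.184), the highest of the libraries, or without shTRPS1#1 replicate 3 (0.169), the lowest. That for the mean of both is lost with limma on RPKM (adjusted p = 0.0773) and without shNT replicate 1 (edgeR adjusted p = 0.192).

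CHD4, the remodelling ATPase of NuRD (ENSG00000111642, chromosome 12, 6570082 to 6614524, minus strand), was at 43.6, 45.1 and 45.9 CPM in shNT. It was at 40.4, 42.7 and 41.3 CPM in shTRPS1#1 and at 39.5, 40.3 and 42.8 CPM in shTRPS1#2. Again the libraries of either hairpin lay below all shNT libraries, with the nearest at 42.8 and 43.6 CPM. CHD4 fell by 0.13 ± 0.05 (log2 ± SE) with shTRPS1#2 (edgeR adjusted p = 0.0424) and by 0.12 ± 0.04 for the mean of both hairpins (0.0328).

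With shTRPS1#1 the value of CHD4 was −0.11 ± 0.05 (log2 ± SE; edgeR adjusted p = 0.116). The shTRPS1#2 call is lost with DESeq2 (adjusted p = 0.132), limma on RPKM (0.172 and 0.171) and either other scaling in edgeR (0.0522 and 0.0553). In edgeR that call is also lost with no count filter (adjusted p = 0.0981) and with the compared groups alone (0.0570). The same holds without shNT replicate 2 (edgeR adjusted p = 0.121), shNT replicate 3 (0.162), shTRPS1#2 replicate 1 (0.190) or shTRPS1#2 replicate 2 (0.156). The call for the mean of both is lost with DESeq2 (adjusted p = 0.109), limma on RPKM (0.143) and edgeR with no count filter (0.0696). It is also lost without any 1 of 6 libraries (edgeR adjusted p from 0.0560 to 0.177), which are replicates 2 and 3 of shNT, 1 and 3 of shTRPS1#1 and 1 and 2 of shTRPS1#2.

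The counts of CHD4 rest on part of its transcript. Of the 12713 exonic bases of CHD4 in GENCODE v29, 5964 (46.9%) are also exonic in a protein-coding readthrough gene on the same strand, ENSG00000285238, which held 0 counts in every library. Of the 6582 bases of the principal transcript CHD4-206, 5846 (88.8%) are shared in this way. Across the table, 99.0% of 1117 genes wholly covered by same-strand exons of other genes held 0 counts in all libraries, against 42.9% of 706 covered from the opposite strand only. The 870 to 1050 counts of CHD4 per library are therefore those of the bases left over, and its level is not comparable with that of the other subunits. The fold changes and calls of CHD4 rest on these bases too, and only 736 of the 6749 unshared bases lie in CHD4-206. Whether the principal transcript changed in the same way was not tested.

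HDAC1 (ENSG00000116478, chromosome 1, 32292086 to 32333635, plus strand), a deacetylase of the complex, was at 208, 219 and 212 CPM in shNT. It was at 204, 204 and 202 CPM in shTRPS1#1 and at 206, 212 and 209 CPM in shTRPS1#2. The shTRPS1#1 libraries lay below all shNT libraries, but the difference of −0.07 (95% interval −0.13 to 0.0011) did not pass the test (edgeR adjusted p = 0.216). With shTRPS1#2 the value was −0.03 (95% interval −0.09 to 0.04; edgeR adjusted p = 0.654).

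HDAC2 (ENSG00000196591, chromosome 6, 113933028 to 114011308, minus strand), its paralogue, was at 236, 253 and 248 CPM in shNT, at 239, 252 and 239 CPM in shTRPS1#1 and at 243, 245 and 261 CPM in shTRPS1#2. The 3 groups overlapped. The log2 differences from shNT were −0.01 (95% interval −0.08 to 0.06) with shTRPS1#1 and 0.02 (95% interval −0.05 to 0.09) with shTRPS1#2.

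The histone chaperone RBBP4 (ENSG00000162521, chromosome 1, 32651142 to 32686211, plus strand) was at 372, 379 and 373 CPM in shNT, at 369, 381 and 366 CPM in shTRPS1#1 and at 364, 355 and 360 CPM in shTRPS1#2. The shTRPS1#2 libraries lay below both other groups. Its log2 difference of −0.06 ± 0.03 (SE) with shTRPS1#2 did not pass the test (edgeR adjusted p = 0.209). RBBP4 varied least of the members, with a range of 0.10 on the log2 CPM scale over the 9 libraries, where TRPS1 had 0.46 and the median gene 0.34.

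MTA1 and MTA2 encode metastasis-associated proteins that hold the deacetylases. MTA1 (ENSG00000182979, chromosome 14, 105419820 to 105470729, plus strand) was at 111, 104 and 106 CPM in shNT, at 107, 107 and 109 CPM in shTRPS1#1 and at 106, 99.3 and 105 CPM in shTRPS1#2. MTA2 (ENSG00000149480, chromosome 11, 62593214 to 62601840, minus strand) was at 82.1, 79.4 and 85.2 CPM in shNT, at 81.5, 77.5 and 85.0 CPM in shTRPS1#1 and at 75.0, 76.7 and 78.8 CPM in shTRPS1#2. The shTRPS1#2 libraries of MTA2 lay below those of shNT, while MTA1 overlapped between each hairpin and shNT.

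MTA2 differed from shNT by −0.10 ± 0.04 (log2 ± SE) with shTRPS1#2, which did not pass the test (edgeR adjusted p = 0.0905). With shTRPS1#1 it differed by −0.02 (95% interval −0.10 to 0.07). MTA1 differed from shNT by 0.01 with shTRPS1#1 (95% interval −0.07 to 0.08) and by −0.05 with shTRPS1#2 (95% interval −0.13 to 0.02).

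MBD3 (ENSG00000071655, chromosome 19, 1573596 to 1592801, minus strand), the methyl-CpG-binding domain subunit, was at 123, 124 and 122 CPM in shNT. It was at 127, 115 and 130 CPM in shTRPS1#1 and at 124, 119 and 124 CPM in shTRPS1#2. All groups overlapped, and the log2 differences from shNT were 0.01 (95% interval −0.07 to 0.08) and −0.01 (95% interval −0.09 to 0.07).

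Over the 9 subunits and both hairpins, the lowest bound of any 95% interval was −0.23 on the log2 scale, for CHD4 with shTRPS1#2, above the estimate of −0.36 for TRPS1 there. The hairpin libraries of 3 subunits lay below all shNT libraries with shTRPS1#1 (GATAD2B, CHD4 and HDAC1) and of 5 with shTRPS1#2 (GATAD2A, GATAD2B, CHD4, MTA2 and RBBP4). Over all genes tested, 13.6% and 16.9% lay below in this way. No subunit lay above all shNT libraries with either hairpin, which 13.8% and 14.9% of all genes did.

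The rest of the complex was followed in 9 further genes: MTA3, MBD2, RBBP7, CHD3, CHD5, the CDK2-associated subunits CDK2AP1 and CDK2AP2, and PWWP2A and PWWP2B, which bind the deacetylase core. CHD5, a remodeller known from neurons, was below the level for testing, with RPKM values of 0.0349 ± 0.0119 (SD, n = 3) in shNT. Of the 8 tested, 1 fell and none rose with each hairpin, and it was CDK2AP1 both times, where 6.33% and 9.87% of all genes were called lower. Their median log2 fold changes were −0.03 and −0.09.

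CDK2AP1 (also known as DOC1) was at 101, 102 and 97.8 CPM in shNT, at 91.0, 90.3 and 84.1 CPM in shTRPS1#1 and at 89.5, 89.7 and 95.8 CPM in shTRPS1#2. All libraries with a TRPS1 hairpin lay below all shNT libraries. It fell by 0.18 ± 0.04 (log2 ± SE) with shTRPS1#1 (edgeR adjusted p = 0.000574) and by 0.13 ± 0.04 with shTRPS1#2 (0.0147). The first call held under every alternative run and with each library left out. The second was lost with limma on RPKM (adjusted p = 0.0719) and without shNT replicate 2 (edgeR adjusted p = 0.0908), shTRPS1#2 replicate 1 (0.0850) or shTRPS1#2 replicate 2 (0.105). The deposited RPKM imply a length of 6027 bases for CDK2AP1, against 3117 in GENCODE v29. AC068768.1, which shares 513 of its exonic bases on the same strand, is not among the identifiers. What else the counts of CDK2AP1 may include was not tested.

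MTA3 was called lower only for the mean of both hairpins, by 0.09 ± 0.03 (log2 ± SE, edgeR adjusted p = 0.0462). That call was lost with DESeq2 (adjusted p = 0.114), limma on RPKM (0.0949), the DESeq2 size factors in edgeR (0.0570) and edgeR with no count filter (0.101). It was also lost without any 1 of 6 libraries (edgeR adjusted p from 0.0559 to 0.214): each shNT library, replicates 1 and 3 of shTRPS1#1 and replicate 3 of shTRPS1#2. MTA3 was at 90.8 to 93.7 CPM in shNT, at 84.6 to 87.8 CPM in shTRPS1#1 and at 81.8 to 88.1 CPM in shTRPS1#2. MBD2 was at 29.5 to 32.8 CPM in shNT, 32.1 to 33.8 CPM in shTRPS1#1 and 28.9 to 31.0 CPM in shTRPS1#2. The hairpins did not overlap for MBD2, which differed by −0.15 ± 0.05 between shTRPS1#2 and shTRPS1#1 (log2 ± SE; edgeR adjusted p = 0.0449), while neither differed from shNT past the threshold. Its call was lost without any 1 of 5 of the 6 hairpin libraries, all but shTRPS1#2 replicate 1 (edgeR adjusted p from 0.0571 to 0.214).

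**Figure D2:**
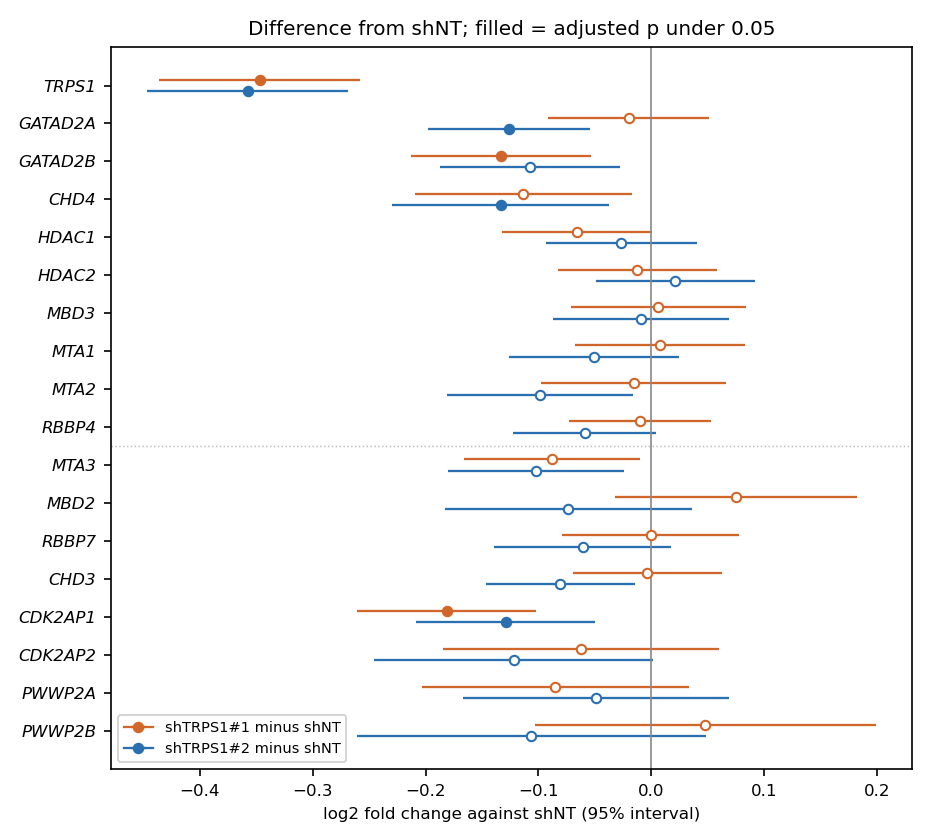
Log2 fold change of each gene against shNT for both hairpins, with its 95% interval from the edgeR fit; filled points have an adjusted p under 0.05, and the dotted line separates TRPS1 and the 9 subunits from the further NuRD genes. TRPS1 stands alone near −0.35, and every filled point of a NuRD gene lies between −0.19 and −0.12.

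Levels of different genes were compared per length, in the RPKM of the shNT libraries. For the members that length is close to all exonic bases of the gene in GENCODE v29. The principal transcript holds unlike parts of these bases, such as 5671 of 7296 for GATAD2A and 2439 of 7845 for MBD3. The order below is therefore one of RPKM and not of mRNA molecules. HDAC1 was highest at 53.7 ± 1.6 RPKM (SD, n = 3), followed by RBBP4 at 39.6 ± 0.6, GATAD2A at 22.5 ± 0.1 and MTA2 at 19.3 ± 0.6 RPKM. HDAC2 at 16.0 ± 0.6, MBD3 at 15.6 ± 0.2 and MTA1 at 15.4 ± 0.4 RPKM came next, and the library ranges overlapped between HDAC2 and MBD3 and between MBD3 and MTA1, so these neighbours are not ordered. GATAD2B at 12.5 ± 0.7 RPKM was lower than these.

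TRPS1 itself stood below all of these subunits at 6.64 ± 0.27 RPKM (SD, n = 3) in shNT. With the hairpins it was at 5.19 ± 0.32 RPKM (shTRPS1#1) and 5.20 ± 0.11 RPKM (shTRPS1#2). CHD4 was deposited at 3.53 ± 0.09 RPKM in shNT. Per kilobase of exon shared with no same-strand gene its level was 6.65 ± 0.18, so the place of CHD4 below TRPS1 rests on how shared bases were counted. Only 736 of those 6749 unshared bases lie in the principal transcript CHD4-206, so 6.65 is not a level of CHD4 mRNA either. The level per kilobase of unshared exon was 17.4 ± 0.2 for MBD3 and 16.0 ± 0.4 for MTA1.

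**Figure D3:**
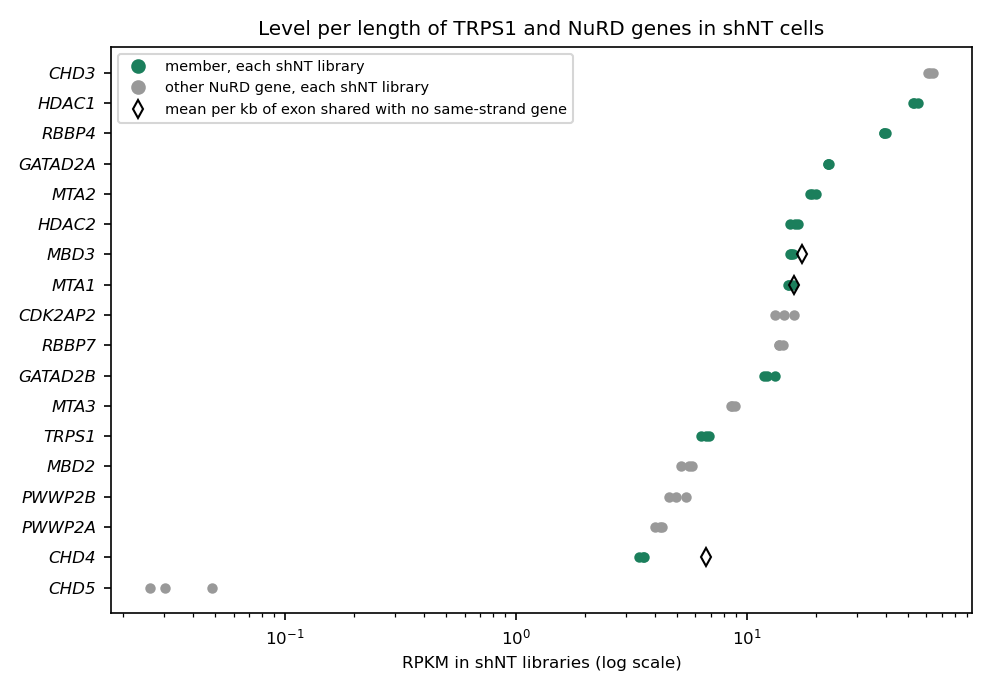
Level per length in each of the 3 shNT libraries (RPKM, log axis), members in green and further NuRD genes in grey. CDK2AP1, with an implied length of 6027 bases against 3117 in GENCODE v29, is left out. Open diamonds give the mean per kilobase of exon that no same-strand gene shares, for the members that share any. CHD3 and HDAC1 are highest and CHD5 is near 0. The diamond of CHD4 lies to the right of its points, level with TRPS1, but only 736 of the 6749 bases behind it lie in the principal transcript.

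For sets of related NuRD genes, the share of each gene in its set's summed RPKM was taken. These shares also rest on the length used and are not shares of mRNA molecules. The principal transcript holds 7943 of 9470 exonic bases for RBBP4, but 2333 of 7392 for RBBP7 and 2202 of 10580 for MTA3. GATAD2A made up 64.4% ± 1.1 (SD, n = 3) of the GATAD2 pair in shNT, HDAC1 77.0% ± 0.3 of the HDAC pair, MBD3 73.8% ± 1.1 of MBD2 and MBD3, and RBBP4 73.9% ± 0.7 of RBBP4 and RBBP7. MTA2 made up 44.5% ± 1.0 of the 3 MTA genes and MTA1 35.4% ± 0.7. The share of CHD4 against CHD3 is not read here, for the counting of CHD4 given above. The principal transcript of MBD3 shares 767 of its 2439 bases with a same-strand gene, and that of MTA1 262 of 2876. The shares of the MBD and MTA genes therefore also rest on how shared bases were counted.

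No share differed between groups by the exact permutation test over libraries (two-sided, 21 tests), which cannot go below 0.1 with 3 against 3. The GATAD2A share was 66.2% ± 1.2 in shTRPS1#1 and 64.1% ± 0.9 in shTRPS1#2, lower by −2.06 points without overlap (exact p = 0.1, adjusted 0.788). The MBD3 share was 72.8% ± 1.5 in shTRPS1#1 and 74.6% ± 0.3 in shTRPS1#2, higher by 1.83 points without overlap (exact p = 0.1, adjusted 0.788). No share of either hairpin was free of overlap with shNT.

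The GATA-type zinc finger that TRPS1 carries is shared with the GATA factors. Of 8 further genes of that family (GATA1 to GATA6, GATAD1 and ZGLP1), 3 were tested, and none was called against shNT by edgeR, DESeq2 or limma (with edgeR at an unadjusted p under 0.05, 1 fell with shTRPS1#1 and 1 rose with shTRPS1#2). GATA2, a blood and endothelial regulator, was at 3.41 to 3.63 CPM in shNT, 3.15 to 4.11 CPM in shTRPS1#1 and 2.75 to 4.26 CPM in shTRPS1#2. No other canonical GATA factor had enough counts for a test. GATAD1, a zinc finger protein of the family, was higher with shTRPS1#2 than with shTRPS1#1 by 0.14 ± 0.05 (log2 ± SE; edgeR adjusted p = 0.0222), a call lost with DESeq2 (adjusted p = 0.0534) and without shTRPS1#1 replicate 1 (edgeR adjusted p = 0.0796), shTRPS1#1 replicate 3 (0.182) or shTRPS1#2 replicate 1 (0.0548).

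NuRD recruiters, DNA-binding or adaptor proteins known to bring the complex to genes, were taken as a list of 20, of which 16 were tested. With shTRPS1#1, 1 rose and 4 fell, and with shTRPS1#2 none rose and 3 fell; the medians were −0.07 in both. Over all genes, 7.1% were called higher and 6.33% lower with shTRPS1#1, and 9.01% and 9.87% with shTRPS1#2. BCL11A, a zinc finger repressor known for silencing fetal globin, and NAB2, a corepressor of EGR factors, were in both sets. BCL11A was at 18.5 to 19.7 CPM in shNT, 14.9 to 15.4 CPM in shTRPS1#1 and 13.1 to 14.8 CPM in shTRPS1#2, without overlap between shNT and either hairpin.

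BCL11A fell by 0.34 ± 0.07 (log2 ± SE) with shTRPS1#1 (edgeR adjusted p = 0.000120; 0.0726 with limma on RPKM) and by 0.45 ± 0.07 with shTRPS1#2 (1.33e-06). NAB2 fell by 0.19 ± 0.05 with shTRPS1#1 (edgeR adjusted p = 0.00234) and by 0.25 ± 0.05 with shTRPS1#2 (4.11e-05). SALL1, a zinc finger repressor of kidney development, fell with shTRPS1#1 by 1.23 ± 0.32 on the log2 scale (edgeR adjusted p = 0.00404), from low levels of 7 to 28 counts per library, and without shNT replicate 2 that call was lost (0.0566). With shTRPS1#2 the value of SALL1 was −0.51 ± 0.28 (edgeR adjusted p = 0.235), and its libraries overlapped with shNT.

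Other corepressor complexes that share HDAC1, HDAC2 or RBBP4 with NuRD, or use another deacetylase, gave mixed directions. Of 16 SIN3 complex genes, 1 was called higher with shTRPS1#1 and none lower (1 at an unadjusted p under 0.05, 0 with DESeq2 and limma), and with shTRPS1#2 the calls were 1 higher and 4 lower. Of 14 genes in the CoREST list, the calls were 2 higher and 1 lower for the first hairpin, against 1 higher and 5 lower for the second. The only 1 higher with the second was KDM1B, a relative of the histone demethylase LSD1. The shares over all genes were 7.1% higher and 6.33% lower for the first hairpin and 9.01% higher and 9.87% lower for the second. Of 7 NCoR complex genes none was called with either hairpin by edgeR, DESeq2 or limma, and with edgeR 1 (TBL1X, a subunit of that complex) was lower with shTRPS1#2 at an unadjusted p under 0.05.

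**Figure D4:**
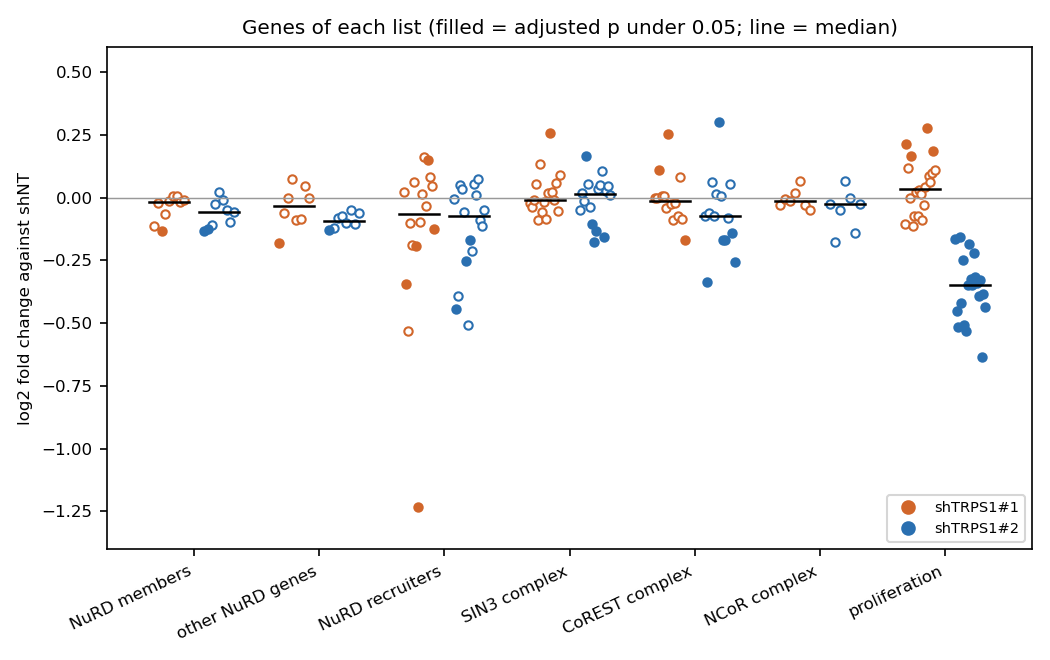
Log2 fold change against shNT of the genes in each list for shTRPS1#1 (orange) and shTRPS1#2 (blue); filled points have an edgeR adjusted p under 0.05 and lines are medians. NuRD genes lie close to 0, SALL1 is the lowest point among the recruiters, and the 20 proliferation genes are all filled and below 0 with shTRPS1#2.

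The genes whose profile was most like that of TRPS1 were ranked by the root mean square difference of log2 CPM, centred on each gene's mean, over the 9 libraries. Of 12797 genes, the nearest were HMGA2 (0.043), an architectural chromatin protein, NUDT4 (0.044), a diphosphoinositol polyphosphate phosphatase, SPATA6 (0.046), SNAI2 (0.056), a zinc finger repressor also called SLUG, and SEC14L2 (0.056), a lipid-binding protein. The median gene was at 0.190. Since TRPS1 was the gene targeted, a like profile is one that separates shNT from both hairpins by a like amount.

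HMGA2 was at 799, 782 and 779 CPM in shNT, at 626, 669 and 621 CPM in shTRPS1#1 and at 641, 665 and 637 CPM in shTRPS1#2. SNAI2 was at 91.7, 94.2 and 93.6 CPM in shNT, at 73.2, 79.9 and 72.8 CPM in shTRPS1#1 and at 70.1, 70.7 and 70.0 CPM in shTRPS1#2. As for TRPS1, replicate 2 was the highest of the shTRPS1#1 libraries for both, but both genes were picked for their likeness over these same libraries. The NuRD subunits were farther from TRPS1, from 0.123 for CHD4 and for GATAD2B to 0.190 for MBD3, which is the value of the median gene.

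**Figure D5:**
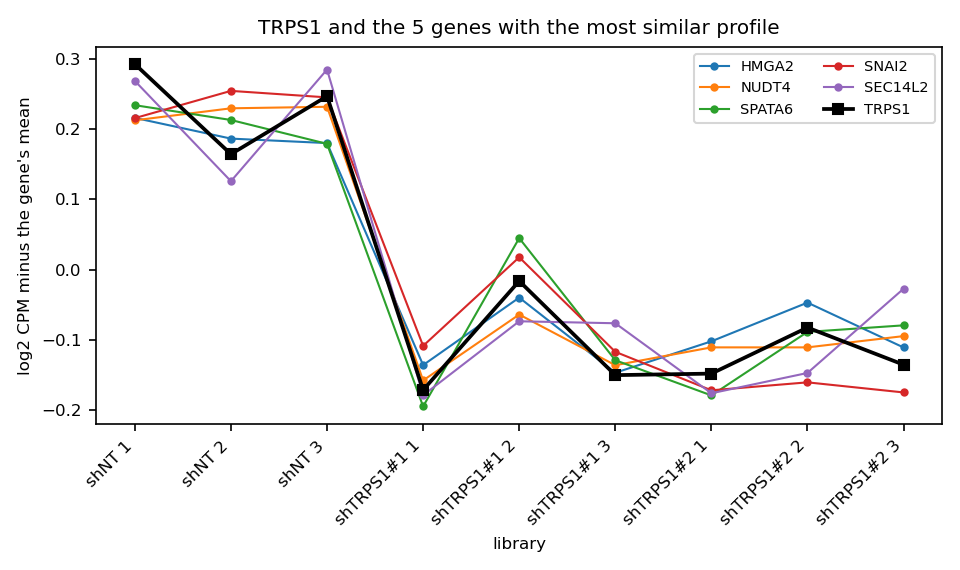
Log2 CPM minus the gene's own mean in each of the 9 libraries for TRPS1 (black squares) and the 5 genes with the smallest root mean square difference from it. All 6 lines are above 0 in the 3 shNT libraries and, apart from shTRPS1#1 replicate 2 for SPATA6 and SNAI2, below 0 in the hairpin libraries.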

How the data were processed

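RNA of 9 RD libraries was read as poly(A)-selected cDNA made with an NEBNext Ultra II RNA kit, per the labels' protocols. GRCh38 is the build in the submitters' processing notes, which list featureCounts 1.6.5, STAR 2.7.2b and bcl2fastq 2.20.0.422. The authors deposited whole-number counts per gene and RPKM. The deposited RPKM equalled counts divided by length and by the library total, up to the constant of the unit, in every library, to within a relative deviation of 9.99e-15. Neither the strand setting nor the annotation release is stated in the labels. From the counts of overlapping genes alone, strands appear to have been kept apart and reads on several same-strand genes left out.

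Counts of all 9 libraries were fitted in one model with a mean per group (edgeR 4.0.16 in R 4.3.3, quasi-likelihood test, TMM scaling, filterByExpr with a minimum count of 10), which leaves 6 residual degrees of freedom. Adjusted p-values are Benjamini-Hochberg values over the 17014 genes kept, with a threshold of 0.05. Standard errors were derived from the fold change and its F statistic and are approximate. CPM are TMM-scaled. The tests were checked on simulated data with known fold changes. DESeq2 1.42.0, limma 3.58.1 on log2(RPKM + 0.1) and log2(RPKM + 1), 2 other scalings, no filter, a replicate block, the compared groups alone and each library left out were the alternatives, and the level per unshared exon was added after seeing the data. Gene symbols were matched for 42009 of the 60676 identifiers. Annotation is GENCODE v29, in which overlaps were counted, and promoter windows are from RefSeq (GRCh38.p14), of which 9 members' were searched; TRPS1's was not used here.

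Named genes are all members, the further NuRD genes, up to 4 genes of each other list with the smallest adjusted p for the mean of both hairpins, and the 5 genes most like TRPS1 among those with a mean log2 CPM of 1 or more; others named were chosen after their values were seen. The members and lists were chosen with earlier results of these data known. Libraries of 1 group differed by more than sampling noise (chi-square per degree of freedom 1.26 to 2.64), and all were kept. Intervals cover the spread between libraries.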

Additional observations from a re-analysis of the deposited data

Results flagged for a closer look

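For 2 NuRD genes the hairpins' effects differed by the test of the difference itself. GATAD2A was at −0.11 (log2) with shTRPS1#2 against shTRPS1#1, with a mean of 151 CPM against 162 CPM. MBD2 was at −0.15 (log2) in the same contrast, with a mean of 29.9 CPM against 33.2 CPM. Neither call held under upper quartile scaling, without the count filter, with DESeq2 or with limma (adjusted p from 0.0522 to 0.135). Summed proliferation genes were at 2172 to 2340 CPM in shTRPS1#1 and at 1672 to 1759 CPM in shTRPS1#2, and their part in these differences was not tested. By the same test, 9 of 23 other named and tested genes differed between shTRPS1#2 and shTRPS1#1 (log2, edgeR adjusted p from 2.83e-16 to 0.0355). The muscle marker PAX7, not counted in these 23, was also lower with shTRPS1#2 there, at −0.56 ± 0.04 (log2 ± SE, edgeR adjusted p = 3.71e-15). Over all genes tested, 10.7% were called lower and 8.9% higher with shTRPS1#2 in this contrast. Many of the 23 were named for their values in these data, so the 9 cannot be read against those shares. Of the 9, the 3 higher with shTRPS1#2 were PTHLH at 1.28, RUNX2 at 0.46 and GATAD1 at 0.14. The 6 lower with shTRPS1#2 were CTBP2 at −0.33, ZEB2 at −0.25, SOX9 at −0.20, PHF12 at −0.16, SIN3A at −0.15 and RNF4 at −0.12. Of these 9, the calls of SOX9, RNF4, PHF12 and GATAD1 were lost with at least 1 library left out (edgeR adjusted p up to 0.0725, 0.196, 0.108 and 0.182). Groups of 3 libraries were not searched for single outlying libraries.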

How the results depend on the processing

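TRPS1 stayed lower past the threshold with both hairpins in every alternative, at −0.32 to −0.40 (shTRPS1#1) and −0.33 to −0.39 (shTRPS1#2) with libraries left out in turn. What depth alone limits was not tested. The median of all genes moved by less than 0.1 under any scaling.

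Counts of the 9 subunits called were less stable. With limma (either pseudocount) they were 0 for shTRPS1#1, 1 for shTRPS1#2, 0 between the hairpins and 0 for the mean of both. For shTRPS1#2 the count was also 1 with the DESeq2 size factors in edgeR, upper quartile factors, no count filter, the DESeq2 test and the compared groups alone. Between the hairpins it was 0 with upper quartile factors, no filter and DESeq2, and for the mean of both it was 1 with no filter and with DESeq2. With libraries left out the counts ran from 0 to 1 (shTRPS1#1), 0 to 2 (shTRPS1#2), 0 to 1 (between hairpins) and 1 to 2 (mean of both). DESeq2 called 859 genes lower for the mean of both, against 1296. The cause was not tested.

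The labels do not say whether the replicate numbers pair the libraries. Deviations of same-numbered libraries correlated at −0.016 to 0.048, none of 9 pairs over 0.1, and those of differently numbered ones at −0.056 to 0.042. Weak correlations over all genes cannot show that no pairing exists. With the number as a replicate block, 2505 (shTRPS1#1), 3434 (shTRPS1#2), 3583 (between hairpins) and 2789 (mean of both) genes were called. In the main fit these numbers were 2285, 3213, 3330 and 2580. For shTRPS1#2 the block added GATAD2B (edgeR adjusted p = 0.0247), MTA3 (0.0450) and CHD3 (0.0406).

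Changes of sign were of uncalled log2 values near 0. For shTRPS1#1 they were MBD3 at −0.00049 (upper quartile) and −0.0070 and −0.0065 (limma with 0.1 and 1), MTA1 at −0.0029 and −0.0027 (limma), and RBBP7 at 0.0012 (DESeq2 size factors) and 0.0011 (DESeq2). Between the hairpins they were TRPS1 at 0.0028 (upper quartile), 0.0047 and 0.0039 (limma) and MBD3 at 0.00064 and 0.00053 (limma). For the mean of both they were MBD3 at 0.0020 (DESeq2 size factors), 0.00032 (no filter) and 0.0019 (DESeq2) and MBD2 at −0.0023 and −0.0020 (limma).

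With libraries left out, the sign also changed within these ranges. For shTRPS1#1 they were CDK2AP2 −0.12 to 0.0043, CHD3 −0.026 to 0.022, GATAD2A −0.042 to 0.0062, HDAC2 −0.041 to 0.0090, MBD3 −0.029 to 0.058, MTA1 −0.011 to 0.032, MTA2 −0.049 to 0.018, PWWP2B −0.0071 to 0.11, RBBP4 −0.028 to 0.0028, RBBP7 −0.036 to 0.032. For shTRPS1#2 they were HDAC2 −0.0080 to 0.047, MBD3 −0.021 to 0.016. Between the hairpins they were CHD4 −0.050 to 0.0044, GATAD2B −0.0070 to 0.058, MBD3 −0.067 to 0.019, MTA3 −0.029 to 0.024, PWWP2A −0.013 to 0.086, TRPS1 −0.035 to 0.039. For the mean of both they were HDAC2 −0.025 to 0.028, MBD2 −0.045 to 0.033, MBD3 −0.019 to 0.024, MTA1 −0.038 to 0.0026, PWWP2B −0.084 to 0.036.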

Other observations

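Among genes reported as partners or targets of TRPS1, mostly in mouse skeletal cells or breast cancer cells, 9 of 12 were tested, and 2 rose and 2 fell with shTRPS1#1 while 1 rose and 2 fell with shTRPS1#2. Over all genes tested, 7.1% were called higher and 6.33% lower with shTRPS1#1, and 9.01% and 9.87% with shTRPS1#2. PTHLH, the gene of parathyroid hormone-related protein, was at 8.40 to 9.65 CPM in shNT, 5.63 to 5.99 CPM in shTRPS1#1 and 13.0 to 14.8 CPM in shTRPS1#2, with no overlap between any of the groups. It fell with the first hairpin by 0.63 ± 0.10 (log2 ± SE; edgeR adjusted p = 2.08e-06) and rose with the second by 0.66 ± 0.08 (1.16e-08). RUNX2, a bone transcription factor, fell with shTRPS1#1 by 0.60 ± 0.10 (edgeR adjusted p = 3.42e-06) and was at −0.15 ± 0.09 with shTRPS1#2 (0.303). SOX9, a cartilage transcription factor, fell with shTRPS1#2 by 0.29 ± 0.06 (edgeR adjusted p = 0.000145). ZEB2, a zinc finger repressor, rose with shTRPS1#1 by 0.22 ± 0.03 (edgeR adjusted p = 2.28e-06), as did RNF4, a ubiquitin ligase that binds TRPS1 in mouse, by 0.19 ± 0.04 (0.000524).

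In the CoREST list, KDM1B, a histone demethylase related to LSD1, was at 25.7 to 27.2 CPM in shNT, 30.3 to 33.1 CPM in shTRPS1#1 and 31.4 to 33.3 CPM in shTRPS1#2. It rose by 0.25 ± 0.05 (log2 ± SE; edgeR adjusted p = 0.000502) and 0.30 ± 0.05 (2.80e-05). ZNF217, a zinc finger partner of CoREST, fell by 0.17 ± 0.04 with shTRPS1#1 (edgeR adjusted p = 0.00109) and by 0.26 ± 0.04 with shTRPS1#2 (8.03e-07). CTBP2, a corepressor that binds NAD, fell with shTRPS1#2 by 0.33 ± 0.04 (edgeR adjusted p = 1.18e-08) and was not called with shTRPS1#1 (0.999). SIN3A, the scaffold of the SIN3 complex, fell with shTRPS1#2 by 0.16 ± 0.04 (edgeR adjusted p = 0.00176), and PHF12, a PHD finger protein of that complex, by 0.18 ± 0.04 (0.00187).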
